A study of Microhyla fissipes with 12 samples.

Results

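The transcripts described here are 26 unigenes whose mean level was lower at each later one of 4 stages of metamorphosis in dorsal muscle of the frog Microhyla fissipes. A unigene is a transcript of a gene catalogue put together from sequencing reads, and its level is given as FPKM, the mapped fragments scaled for transcript length and library size. The 26 were found among 468578 unigenes by their mean FPKM over the 3 libraries of a stage. The rule asked for a mean of at least 30 at stage S36, a mean at S36 at least 1.2 times that at S40, one at S40 at least 1.5 times that at S43, and one at S43 at least 1.5 times that at S45. The lowest S36 library also had to hold at least 2 times the highest S45 library. Unigenes whose lowest S36 or S40 library was at least 4 times the highest S43 or S45 library were left out.

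The libraries came from dorsal muscle at stages 36, 40, 43 and 45, with 3 libraries at each stage, and the labels name no treatment beyond a diet of spirulina. They are biological replicates per the series, with the number of animals behind a library not stated. The tissue is a mixture of cells, so fewer cells of a type and less RNA per cell cannot be told apart. The table pairs no unigene with a gene name, so members are given by their IDs and the tissue was not checked against marker genes.

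Metamorphosis in frogs is driven by thyroid hormone, which acts through nuclear receptors that switch genes on and off. In the trunk, larval muscle fibres are broken down while adult fibres form from myoblasts, so that dorsal muscle is rebuilt while the tail is lost. Larval and adult fibres use different forms of contractile proteins, and transcripts of larval fibres are known to decline through this change in Xenopus. Whether any of the 26 unigenes is such a transcript was not tested.

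Each threshold of the rule took away part of the catalogue. An S36 mean of at least 30 was met by 3288 unigenes, of which 1085 also met the step to S40, 122 the step to S43 and 36 the step to S45. The condition on single libraries left 34, and its last clause took out 8, of which 3 had a library at 0 at S36 or S40 and met the clause as 0 against 0, and left the 26. The mirror of the rule without its last clause, for unigenes that rise from S36 to an S45 mean of at least 30, was met by 225. Its like count is the 34 before the last clause. How many unigenes had an S45 mean of at least 30 was not computed. Of the 3288 unigenes, 319 had stage means that were lower at each successive stage, which is 9.7%, and 371 had means that were higher at each, which is 11.3%.

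Several facts about the libraries touch these values. S45 replicates 2 and 3 differed by less than any other pair, with a robust SD of the log2 ratio of 0.0288 among unigenes at a mean FPKM of 1000 or more. The pair's own spread at low levels, scaled as sampling noise would fall with level, gave 0.021. This scaled value includes any real difference between the libraries and is not a measured noise floor. The mean of S45 replicates 2 and 3 counts as 1 sample, so S45 has n = 2 in every SD and in the main tests. This does not hold for alternative fits with 12 separate libraries or without S45 replicate 1. S36 replicate 3 and S40 replicate 1 were the next closest pair (0.0559, against 0.183 or more in the pairs after them), although they come from different stages. The same scaled value was 0.0288 for these 2 libraries. Whether they share animals or 1 of them carries another stage's label is not given in the sources used here. The S36 and S40 means, SDs and n = 3 count them as independent, and the step between these stages rests on that. Without both, 23 of the 26 still met the rule, which then gave 41 unigenes. S36 replicate 3 was the lowest S36 library for 15 of 26 members, so leaving it out raised their S36 means. The 23 therefore says little about that step. S43 replicate 3 and S45 replicate 1 drew 12.7% and 12.3% of their total FPKM from unigenes outside the largest cluster of the assembly, Cluster-199519, against 2.86% to 6.57% in the other 10 libraries. Total FPKM was 1219979 to 1688307 per library, and read depth is unknown because the table holds no counts. All 26 members lie in Cluster-199519, as do 3283 of the 3288 unigenes with an S36 mean of at least 30.

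Together the 26 members held 0.779%, 1.19% and 0.493% of total FPKM in S36 replicates 1, 2 and 3. They held 0.474%, 0.437% and 0.632% in the S40 libraries and 0.293%, 0.163% and 0.117% in the S43 libraries. In the S45 libraries they held 0.0665%, 0.0629% and 0.0624%. The mean share was 0.819% ± 0.349 for the S36 libraries, 0.514% ± 0.104 for those of S40, 0.191% ± 0.091 for those of S43 (SD, n = 3 each) and 0.0646% ± 0.00274 for S45 (SD, n = 2). S36 and S40 libraries overlapped in this share, since S36 replicate 3 lay below S40 replicate 3, while every S43 library lay below every S40 library and above every S45 library. The share is a description, because the same values chose the members. The 4 most abundant members made up 71.04% to 89.5% of the summed level in each library. Without the 10 most abundant members the shares were 0.0738% at S36, 0.0451% at S40, 0.0116% at S43 and 0.00438% at S45.

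**Figure D1:**
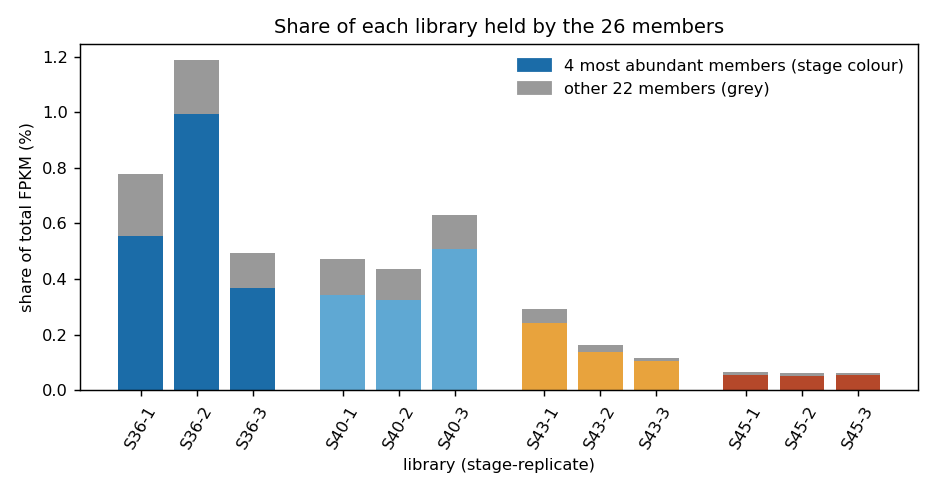
Share of total FPKM (percent, vertical axis) held by the 26 members in each of the 12 libraries (horizontal axis), with the 4 most abundant members in the stage colour and the other 22 in grey. The share runs from 1.19% in S36 replicate 2 to 0.0624% in S45 replicate 3, and S36 replicate 3 stands beside S40 replicate 1 at 0.493% and 0.474%.

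The 4 most abundant members had S36 means above 1000 FPKM. Cluster-199519.122051, the highest, had 2713, 5539.9 and 1684 FPKM in S36 replicates 1, 2 and 3, 1559, 1510.0 and 2285 in those of S40, 1382, 629 and 328 in those of S43 and 188, 180.0 and 173 in those of S45. Its S40 and S43 libraries did not overlap, nor did those of S43 and S45, but S36 replicate 3 lay below S40 replicate 3. Its means were 3312 ± 1997 at S36, 1785 ± 434 at S40 and 779.9 ± 543 at S43 (SD, n = 3 each) and 182 ± 8.29 at S45 (n = 2), an S36 mean 18.4 times that of S45 over 3 libraries each (log2 difference -4.002 ± 0.56 SE, limma adjusted p = 0.014). It was the only member that met the rule whichever single library was left out.

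Cluster-199519.120375 had 1518, 2964 and 1090.0 FPKM in S36 replicates 1, 2 and 3, 1037, 944 and 1523 in those of S40, 1005, 597 and 490.1 in those of S43 and 248, 224 and 243 in those of S45. Its ratio of S40 to S43 means, 1.68, was the lowest of the 4, with S43 replicate 1 above S40 replicate 2, and its S43 and S45 libraries did not overlap. Cluster-199519.119529 had 1653, 2108 and 1122 FPKM in S36 replicates 1, 2 and 3, 1107, 1014 and 1436 in those of S40, 520.3, 372 and 643 in those of S43 and 257, 186 and 193 in those of S45. In it S43 replicate 3 was the highest of the S43 libraries, where in the preceding pair of members it was the lowest. Cluster-199519.124569 had 1144, 1514 and 803 FPKM in S36 replicates 1, 2 and 3, 822, 755 and 1111 in those of S40, 296, 279 and 311 in those of S43 and 202, 145 and 156 in those of S45. Its S43 libraries agreed closely, at 295 ± 15.8 (SD, n = 3), and it was the 1 of the 4 called lower at S43 than at S40 (ratio of means 3.04; log2 difference -1.58 ± 0.27 SE, limma adjusted p = 0.043). With median-ratio scaling, with no filter or when only the S40 and S43 libraries were fitted, this call was lost. From S36 to S45 the adjusted p of these 3 was 0.018, 0.0053 and 0.005 by limma, with log2 differences of -2.81 ± 0.42, -2.83 ± 0.32 and -2.67 ± 0.30 (SE).

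**Figure D2:**
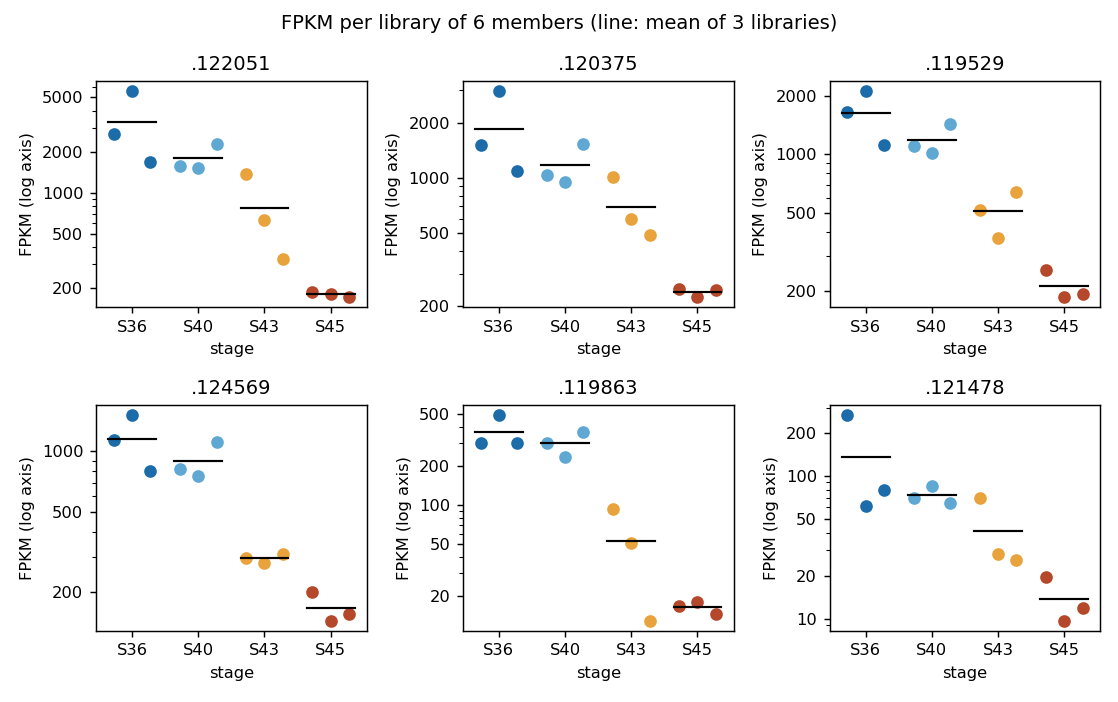
FPKM (log axis) of 6 members in each library, by stage, with a line at the mean of 3 libraries; the titles are the numbers of the unigenes within Cluster-199519. In each panel the S36 points reach down to the S40 points, and S45 points lie lowest except that the S43 replicate 3 value of Cluster-199519.119863, at 12.9, is below them.

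Cluster-199519.119863 and Cluster-199519.119541 had nearly the same course. The former had 302, 492 and 298 FPKM in S36 replicates 1, 2 and 3, 299, 236 and 363 in those of S40, 93.2, 51.4 and 12.9 in those of S43 and 16.6, 17.9 and 14.5 in those of S45. The latter had 276, 448 and 263 FPKM in S36 replicates 1, 2 and 3, 256, 207 and 307 in those of S40, 91.5, 62.96 and 11.4 in those of S43 and 12.8, 13.5 and 14.7 in those of S45. Both lay below all of their S45 libraries in S43 replicate 3, while S43 replicates 1 and 2 lay between S40 and S45. Their S36 means were 22.3 and 24.03 times those of S45 (limma adjusted p = 0.018 and 0.021). The former also stood nearest to the threshold for the first step, with an S36 mean 1.22 times that of S40.

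Cluster-199519.116019 had 186, 194 and 137 FPKM in S36 replicates 1, 2 and 3, 133, 129.7 and 97.6 in those of S40, 31.2, 55.8 and 26.7 in those of S43 and 33.7, 22.3 and 18.9 in those of S45. It was the only member whose S36 libraries all lay above its S40 libraries, by 137 against 133 at the closest, and its S40 libraries all lay above those of S43. Its last step was the smallest of the members, 1.52 times, and S45 replicate 1 lay above S43 replicates 1 and 3. Cluster-199519.120811 had 486, 131 and 114 FPKM in S36 replicates 1, 2 and 3, 229.7, 160.3 and 126 in those of S40, 129, 6.33 and 18.8 in those of S43 and 0, 14.5 and 0 in those of S45. It was listed at 0 in S45 replicates 1 and 3, and its S43 libraries spanned from 6.33 to 129, so no fold is given.

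Of the 9 members that were highest in S36 replicate 1, 6 with S36 means from 63.1 to 136 are given here and the other 3 elsewhere. Cluster-199519.121478 had 266, 61.1 and 79.5 FPKM in S36 replicates 1, 2 and 3, 70.1, 85.3 and 64.05 in those of S40, 69.8, 28.4 and 25.8 in those of S43 and 19.4, 9.69 and 11.9 in those of S45. Its S36 replicate 2 lay below all of its S40 libraries. Cluster-199519.121533 had 219, 35.7 and 51.01 FPKM in S36 replicates 1, 2 and 3, 54.5, 78.3 and 55.1 in those of S40, 25.6, 10.4 and 5.96 in those of S43 and 8.95, 9.13 and 5.82 in those of S45. Cluster-199519.113569 had 203, 38.6 and 60.02 FPKM in S36 replicates 1, 2 and 3, 60.8, 68.9 and 40.9 in those of S40, 11.4, 3.43 and 2.23 in those of S43 and 3.4, 5.27 and 1.36 in those of S45. For both, S36 replicate 2 lay below every S40 library, and S43 replicate 3 was within the S45 range. In Cluster-199519.113569 S43 replicate 2 was within that range too, so only S43 replicate 1 lay above its S45 libraries. Cluster-199519.113569 had the largest middle step of the members with no library at 0, with an S40 mean 9.997 times that of S43 (limma adjusted p = 0.06).

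Cluster-199519.120241 had 177, 31.4 and 46.3 FPKM in S36 replicates 1, 2 and 3, 52.4, 57.4 and 39.98 in those of S40, 27.1, 9.37 and 7.67 in those of S43 and 4.82, 3.4 and 4.61 in those of S45, with S40, S43 and S45 in separate ranges. Cluster-199519.111144 had 122, 29.5 and 37.6 FPKM in S36 replicates 1, 2 and 3, 37.4, 43.3 and 35.6 in those of S40, 10.5, 2.57 and 1.84 in those of S43 and 1.83, 2.2 and 1.31 in those of S45. Cluster-199519.129429 was less uneven, with 87.3, 43.4 and 59.9 FPKM in S36 replicates 1, 2 and 3, 60.6, 56.6 and 30.6 in those of S40, 12.1, 3.7 and 3.07 in those of S43 and 1.49, 1.89 and 1.38 in those of S45. It had the largest S36 to S45 ratio of the members with no library at 0, 40.04 (log2 difference -4.60 ± 0.56 SE, limma adjusted p = 0.0073), and with Cluster-199519.124569 was 1 of 2 members that passed from S40 to S43 (limma adjusted p = 0.045), a call lost under the same 3 settings.

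The other members had S36 means under 71 FPKM. Cluster-199519.119755 had 114, 63.9 and 33.3 FPKM in S36 replicates 1, 2 and 3, 34.03, 56.4 and 81.9 in those of S40, 17.95, 14.6 and 6.27 in those of S43 and 1.48, 2.84 and 3.06 in those of S45, and its S40, S43 and S45 ranges were separate. Cluster-199519.121285 had 61.95, 105 and 41.2 FPKM in S36 replicates 1, 2 and 3, 38.96, 33.4 and 60.4 in those of S40, 27.8, 17.4 and 6.49 in those of S43 and 4.91, 4.02 and 4.6 in those of S45. Its ranges were separate after S40 as well, and its profile was that of Cluster-199519.122051 at a lower level. Cluster-199519.119914 had 58.6, 75.7 and 71.8 FPKM in S36 replicates 1, 2 and 3, 70.1, 29.6 and 41.4 in those of S40, 36.8, 14.6 and 10.2 in those of S43 and 10.98, 13.3 and 6.02 in those of S45; S43 replicate 1 lay above S40 replicate 2. Cluster-199519.117222 had 42.9, 79.3 and 40.7 FPKM in S36 replicates 1, 2 and 3, 41.1, 31.98 and 35.4 in those of S40, 21.1, 14.8 and 9.93 in those of S43 and 11.8, 9.62 and 7.4 in those of S45, with S43 replicate 3 within the S45 range.

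Cluster-199519.118807 had 58.7, 15.3 and 36.4 FPKM in S36 replicates 1, 2 and 3, 36.5, 23.9 and 22.4 in those of S40, 9.47, 8.06 and 3.49 in those of S43 and 3.64, 2.86 and 2.99 in those of S45, and S36 replicate 2 lay below all of its S40 libraries. Cluster-199519.124190 had the most even steps, with ratios of 1.82, 1.76 and 1.69, yet its libraries overlapped at the first 2 of them. It had 38.8, 53.4 and 16.03 FPKM in S36 replicates 1, 2 and 3, 12.8, 31.9 and 14.9 in those of S40, 7.69, 18.3 and 7.94 in those of S43 and 6.06, 7.68 and 6.33 in those of S45. Cluster-199519.107341 had the lowest S36 mean, 31.2, with 33.1, 38.5 and 22.1 FPKM in S36 replicates 1, 2 and 3, 23.7, 28.4 and 17.95 in those of S40, 8.27, 8.15 and 11.8 in those of S43 and 9.5, 3.24 and 3.92 in those of S45. Cluster-199519.120583 had 38.1, 38.2 and 52.7 FPKM in S36 replicates 1, 2 and 3, 46.5, 45.01 and 7.21 in those of S40, 49.4, 5.06 and 6.3 in those of S43 and 6.91, 12.01 and 11.6 in those of S45; S43 replicate 1 lay above every S40 library, so its middle step came from the other 2 S43 libraries.

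The remaining 4 members, like Cluster-199519.120811, had a library listed at 0, which makes 5 members in all. An exact 0 in an assembled catalogue can be a failed estimate, so these 4 are given by library, with no fold. Cluster-199519.156175 had 0, 75.8 and 108 FPKM in S36 replicates 1, 2 and 3, 84.02, 9.23 and 18.4 in those of S40, 18.95, 0 and 11.6 in those of S43 and 0, 0 and 0 in those of S45. Cluster-199519.133766 had 63.3, 98.9 and 0 FPKM in S36 replicates 1, 2 and 3, 46.5, 31.3 and 20.6 in those of S40, 0, 2.1 and 0 in those of S43 and 0, 0 and 0 in those of S45. Both met the condition on single libraries at 0 against 0. Cluster-199519.105603 had 12.6, 139 and 0.98 FPKM in S36 replicates 1, 2 and 3, 2.38, 0.51 and 21.95 in those of S40, 0, 1.67 and 1.24 in those of S43 and 0, 0 and 0 in those of S45, so its S36 mean came mostly from replicate 2. Cluster-199519.84843 had 18.4, 65.7 and 25.1 FPKM in S36 replicates 1, 2 and 3, 32.5, 0.61 and 27.5 in those of S40, 0, 0 and 17.2 in those of S43 and 3.55, 0 and 0 in those of S45, the S43 mean coming from replicate 3 alone.

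**Figure D3:**
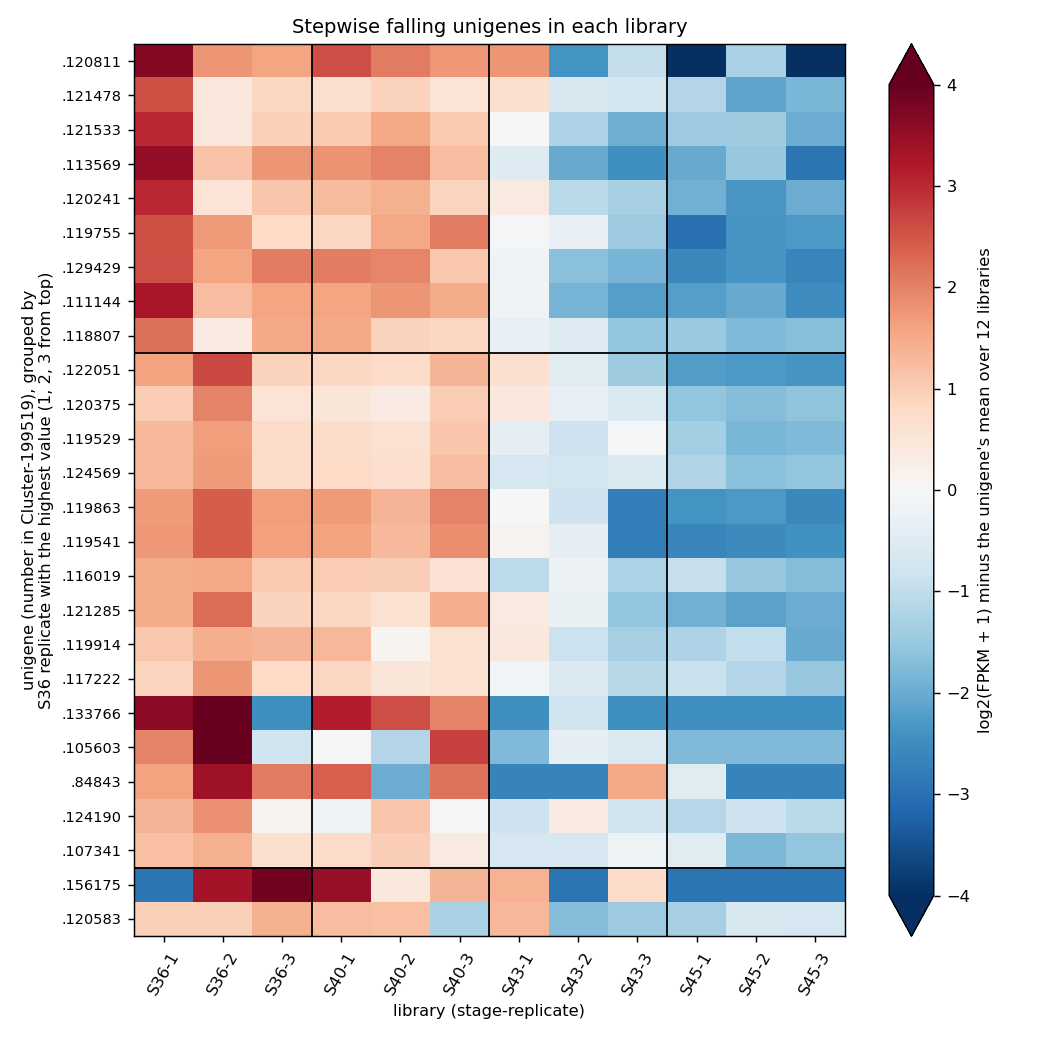
Level of each member in each library as log2(FPKM + 1) minus the member's mean over the 12 libraries (colour; arrows on the scale mark values beyond its ends), with libraries on the horizontal axis and members, by number within Cluster-199519, on the vertical. Rows are grouped by the S36 replicate with the highest value: 9 members in replicate 1, 15 in replicate 2 and 2 in replicate 3. S43 replicate 1 is the highest of the S43 columns for 18 of the 26 members.

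The label of a fall through all stages held for stage means and not for single libraries. No member had separate library ranges at all 3 steps. The lowest S36 library lay above the highest S40 library in 1 of 26 members, against 6.05% of the 3288 unigenes with an S36 mean of at least 30. For S40 and S43 this was so in 17 of 26 (background 12.7%) and for S43 and S45 in 10 of 26 (background 14.1%), both comparisons that the rule itself used. In 7 members the ranges were separate at both of these later steps, namely those of Cluster-199519.122051, Cluster-199519.119529, Cluster-199519.124569, Cluster-199519.120241, Cluster-199519.119755, Cluster-199519.121285 and Cluster-199519.129429. The share of the 3288 unigenes with ranges separate at both later steps, or at all 3, was not computed. These counts are therefore a description only. The share at all 3 can be no higher than the 6.05% at the first step, so having no such member is not read as a trait of the 26. The lowest of the 6 S36 and S40 libraries lay above the highest of the 6 S43 and S45 libraries in 16 of 26 (background 6.14%), a quantity that the last clause used.

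The libraries were least often separate at the step from S36 to S40, in 1 of 26 members (3.85%) against 6.05% of the 3288 unigenes. The background was lowest at this step too, and the rule asked for only 1.2 times there. Within the close pair, S36 replicate 3 and S40 replicate 1 were within 20% of each other in 20 of 26 members (76.9%), against 79.8% of the 3288 unigenes, and the median ratio of the former to the latter was 0.997. S36 replicate 3 was at least 1.2 times S40 replicate 1 in 2 members (background 14.7% of the 3288). S36 replicate 1 was at least 1.2 times S40 replicate 1 in 19 members (background 39.3%). S36 replicate 2 reached 1.2 times S40 replicate 1 in 15 members (background 22.1%). Against S40 replicate 2 the counts for S36 replicates 1, 2 and 3 were 23, 16 and 9 (background 39.9%, 22.7% and 31.9%). Against S40 replicate 3 they were 16, 18 and 9 (background 48.9%, 37.7% and 51.5%). S36 replicate 2 was the highest S36 library for 15 of 26 members (57.7%), against 21.4% of the 3288, and S36 replicate 1 for 9 of 26 (34.6%), against 41.5%. S36 replicate 3 was the lowest for 15 of 26 (57.7%), against 19.8%. The rule used the S36 mean and the lowest S36 library, so these shares too describe the choice of members.

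With the highest S36 library of each member left out, the mean of the remaining 2 was at least 1.2 times the S40 mean in 4 of 26 members (15.4%) and below the S40 mean in 10. Leaving out the highest value lowers any mean: among the 1085 unigenes that met the first step, 568 still met it, which is 52.4%. The 4 members were Cluster-199519.122051, Cluster-199519.116019, Cluster-199519.119914 and Cluster-199519.124190, with ratios of 1.23, 1.34, 1.38 and 1.38. Among the 9 members that were highest in S36 replicate 1 the median ratio of S36 to S40 was 1.63 with that library and 0.865 without it. Among the 15 that were highest in S36 replicate 2 it was 1.5 and 1.16. How many of the 1085 unigenes fell below the S40 mean, and the same medians for them, were not computed.

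**Figure D4:**
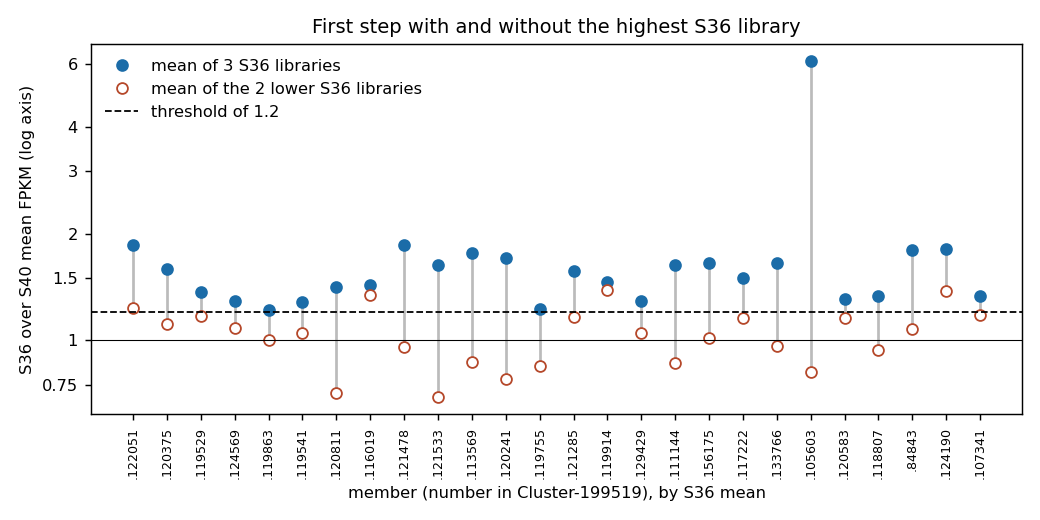
Ratio of S36 to S40 mean FPKM (log axis) for each of the 26 members, ordered by S36 mean; filled points use all 3 S36 libraries and open points the 2 lower ones. All filled points lie above the dashed threshold of 1.2, as the rule requires, and 4 open points do. Cluster-199519.156175 and Cluster-199519.133766 have an S36 library at 0.

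The rule asked for at least 1.5 times at the 2 later steps and 1.2 times at the first, so the sizes of the steps are a description. Over the 21 members with no library at 0, the ratio of S36 to S40 means was 1.22 to 1.86 (median 1.46), that of S40 to S43 was 1.63 to 9.997 (median 3.04) and that of S43 to S45 was 1.52 to 5.26 (median 2.41). The median ratios over the 3288 unigenes were 1.05, 0.865 and 1.13. The largest step was that from S40 to S43 for 12 of the 21, that from S43 to S45 for 8 and that from S36 to S40 for 1, Cluster-199519.124190. From S36 to S45 the ratio of means was 4.23 to 40.04, with a median of 11.6 against 1.05 over the 3288.

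**Figure D5:**
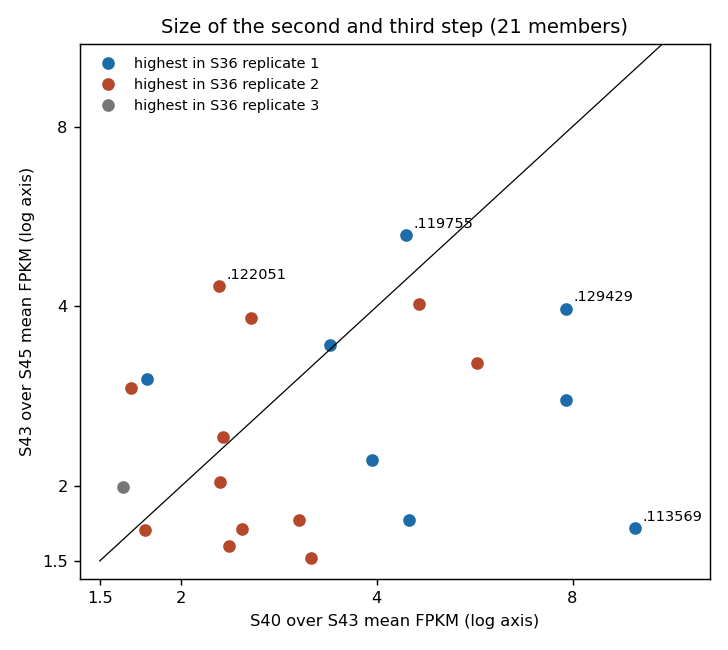
Ratio of S40 to S43 mean FPKM (horizontal, log axis) against that of S43 to S45 (vertical, log axis) for the 21 members with no library at 0, coloured by the S36 replicate with the highest value; the line marks equal steps. Ratios run from 1.63 to 9.997 on the horizontal axis and from 1.52 to 5.26 on the vertical, and Cluster-199519.113569 and Cluster-199519.119755 hold the highest of each.

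The S43 libraries differed in order. S43 replicate 1 was the highest S43 library for 18 of 26 members (69.2%), against 30.2% of the 3288 unigenes, and S43 replicate 3 was the lowest for 16 of 26 (61.5%), against 24.5%. The rule used the S43 mean and the highest S43 library, and 9 members no longer met it without S43 replicate 1, so these shares describe the choice of members. All 9 members that were highest in S36 replicate 1 were also highest in S43 replicate 1 within S43, as were 7 of the 15 that were highest in S36 replicate 2. The same split of the 3288 unigenes was not computed. S43 replicate 1 was at least 1.5 times S45 replicate 1 in 21 of 26 members, against 26.7% of the 3288 unigenes. For S43 replicate 2 this was so in 15 members (background 31.9%) and for S43 replicate 3 in 12 (background 21.3%). Against S45 replicate 2 the counts for S43 replicates 1, 2 and 3 were 24, 20 and 14 (background 24.4%, 30.2% and 26.7%). Against S45 replicate 3 they were 25, 25 and 16 (background 24.9%, 30.6% and 27.1%), with equal counts for S43 replicates 1 and 2. The members' median ratio to S45 replicate 3 was still 5.87 in S43 replicate 1 and 2.46 in S43 replicate 2, over 21 members above 0 in each case. The rule itself used the step between these stages. S43 replicate 3 and S45 replicate 1 are the libraries with the large share from outside Cluster-199519, whose part in this order was not tested. The S43 share of the members was 0.203% when taken of Cluster-199519 alone, against 0.191% of the whole.

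Some members kept a nearly fixed ratio to each other in all 12 libraries, a comparison chosen after seeing the values. Of 210 pairs among the 21 members with no library at 0, the ratio spanned 8.196-fold from lowest to highest library in the median pair. For Cluster-199519.122051 and Cluster-199519.121285 it spanned 1.46-fold, with the former 36.2 to 52.8 times the latter. For Cluster-199519.119863 and Cluster-199519.119541 it spanned 1.62-fold, from 0.817 to 1.32, and for Cluster-199519.119529 and Cluster-199519.124569 1.68-fold, from 1.23 to 2.07. Whether such pairs are pieces or forms of 1 gene, between which reads could be split, is not given in the table.

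In limma's fit of the 123813 unigenes that reached 1 FPKM in 3 or more libraries, all 26 members were tested, and they passed mainly between the ends of the series. At S45 against S36, 16 of 26 were called lower, that is by 1 or more on the log2 scale at a Benjamini-Hochberg adjusted limma p below 0.05, where 0.141% of all unigenes were called lower. The median log2(FPKM + 1) difference of the members was -3.57 against 0.56 over all unigenes tested. Between S43 and S40, 2 of 26 were called lower (background 0.18%), and the median difference was -1.79 against 0.01. Between S45 and S43 none was called lower by limma (background 0.0436%), with a median of -0.84 against 0.38. An unadjusted limma p under 0.05 was found in 9 members there, and in 19148 of the 123813 unigenes in either direction. Between S40 and S36 none was called lower (background 0%), with a median of -0.42 against 0.09. No member had an unadjusted limma p under 0.05 there, against 3882 of the 123813 unigenes, which is also a small part. By limma's F test over the 4 stages 12 of 26 differed (background 0.981%). The rule used these same contrasts and libraries, so the counts describe the members and test nothing about them.

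The 10 members not called between S36 and S45 were Cluster-199519.121478 (limma adjusted p = 0.066), Cluster-199519.121533, Cluster-199519.119914, Cluster-199519.120583, Cluster-199519.124190, Cluster-199519.107341 and the 4 last described with a library at 0. Of the called members, those nearest to 0.05 were Cluster-199519.120811, Cluster-199519.120241, Cluster-199519.117222 and Cluster-199519.118807 (limma adjusted p = 0.043, 0.048, 0.048 and 0.049). Cluster-199519.120811 is the called member with S45 libraries at 0. On the log scale, which weights libraries more evenly than a mean of FPKM, S40 stood above S36 in 2 members, by 0.34 ± 1.65 (SE) in Cluster-199519.156175 and 0.79 ± 1.36 (SE) in Cluster-199519.133766, neither of which passed. Without S36 replicate 1, S36 replicate 2 or S45 replicate 1, the 16 calls became 3, 3 and 2, and without S36 replicate 3 or S40 replicate 1 they became 10 each. Without both of these last they became 6. A fit of S36 and S45 alone called 0. For these fits and those that follow, the share of all unigenes called was not computed, so the changes are not read as a trait of the members. The 2 calls between S40 and S43 became 0 without S36 replicate 1 or 2, any S40 replicate, S43 replicate 2 or S45 replicate 1, became 1 without S43 replicate 3 and 4 without S43 replicate 1. The 12 calls of the F test became 4 to 6 without S36 replicate 1 or 2, any S40 replicate or S45 replicate 1. Leaving aside the fits of 2 stages, with no filter, with no fold threshold and without S45 replicate 1, Cluster-199519.119529 and Cluster-199519.124569 were called lower in every alternative fit. Fits without an S40 or S43 library left their S45 minus S36 differences unchanged. In the fit without S45 replicate 1, S45 is a lone sample, so its calls are not given for single members. With that fit these alternatives number 20, and they do not include the other fits left aside. All 26 members had a negative S45 minus S36 difference in each of the 20, which the rule's condition on single libraries largely fixed in advance.

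The unigenes nearest to each threshold were as follows. Cluster-199519.122925, just outside on the first step at a ratio of 1.1996, had 50.3, 53.5 and 35.6 FPKM in S36 replicates 1, 2 and 3, 37.01, 34.6 and 44.6 in those of S40, 27.1, 26.7 and 16.6 in those of S43 and 14.3, 14.2 and 17.1 in those of S45. Cluster-199519.112568 was outside on the second step at 1.43 and Cluster-199519.111990 on the third at 1.43, while the nearest inside were Cluster-199519.120583 at 1.63 and Cluster-199519.116019 at 1.52. Cluster-199519.114318 had an S36 mean of 29.95, just under 30. Cluster-199519.124851 had a lowest S36 library 1.82 times its highest S45 library, against 2.09 in Cluster-199519.124190.

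The last clause of the rule took out 8 unigenes. Cluster-199519.119935, the most abundant of them, had 996, 1776 and 548 FPKM in S36 replicates 1, 2 and 3, 646, 681 and 1159 in those of S40, 23.8, 5.27 and 1.86 in those of S43 and 5.94, 4.86 and 6.54 in those of S45. Its lowest S36 or S40 library was 23.1 times its highest S43 or S45 library, where the member nearest to the limit of 4, Cluster-199519.113569, had 3.39. It was the 1 unigene of the 8 with no library at 0. Like Cluster-199519.122051 it was highest at S36 in replicate 2 and lowest in replicate 3. In S43 replicate 1 Cluster-199519.122051 still had 1382 FPKM, where Cluster-199519.119935 had 23.8.

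By abundance, 4 of 26 members had an S36 mean of at least 1000 FPKM (15.4%), against 129 of the 3288 (3.92%), and 15 were under 100 (57.7%), against 73.5%. The rule used the S36 mean, so these shares too describe the choice of members.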

How the data were processed

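Messenger RNA of dorsal muscle was sequenced in 12 libraries, 3 at each of 4 stages, taken from the sample titles. Per the labels' protocols, poly-A RNA was fragmented, copied with random hexamers and sequenced as paired ends. The authors deposited a single table of FPKM values rounded to 2 decimals. The sources used here name no assembler, aligner or counting tool. Because FPKM values are shares of a library, a change in the most abundant transcripts moves all other values. Whole reads were not recovered, so no count model was used.

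Members were found by the rule on the FPKM as deposited. The members, the rule for named unigenes and the alternatives were chosen with earlier results of these data known. The named unigenes were the 10 with the highest S36 mean, the 5 with the largest S36 to S45 ratio, the 5 with the most even steps, up to 5 without overlap at any step and those nearest to each threshold; the other members are given so that all are accounted for. The close pair ratios and the first step without the highest S36 library were chosen after seeing the values.

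Ratios of stages are ratios of 3-library means, and means with an SD count S45 replicates 2 and 3 as 1 sample. Tests came from limma 3.58.1 (R 4.3.3), which was run on log2(FPKM + 1) of 11 samples, with stage as the only term, a mean-expression trend and Benjamini-Hochberg adjustment over the 123813 unigenes that reached 1 FPKM in 3 or more libraries. Differences on that scale understate changes of low unigenes. Since the series calls the replicates biological without saying which animals they came from, p-values speak only of the spread seen among the libraries, some of which may be technical. The fit was tested on simulated data. Tables were read with data.table, at version 1.17.8, and Python 3.11.15 with numpy 2.4.6, pandas 2.3.3 and matplotlib 3.10.9 was used. No library was set aside. Alternatives covered pseudocounts, filters, median-ratio scaling, quantile normalization, 12 separate libraries with and without the replicate number as a block, left-out libraries, fits of 2 stages, no fold threshold and other thresholds of the rule.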

Additional observations from a re-analysis of the deposited data

How the results depend on the processing

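The list of members depended on scaling and on its own thresholds. The rule gave 26 unigenes on FPKM as deposited, 61 with median-ratio scaling (22 of the 26 among them) and 74 with quantile normalization (25 of the 26). Median-ratio scaling divided the S45 libraries by 1.38 to 1.396 and the S36 libraries by 0.841 to 0.992; the median log2 difference of all unigenes from S36 to S45 was then 0.23, against 0.56, and 0.02 with quantile normalization, while the members' median was -4.09 and -4.12. Without the close pair, S36 replicate 3 with S40 replicate 1, the rule gave 41 (23 of the 26). It gave 44 with every step at 1.2 times, 1 with every step at 2 times, 55 with an S36 mean of at least 10 and 11 with at least 100. Stage medians gave 27, of which 10 were among the 26. Without a single library it was 20 to 43, the highest without S43 replicate 2. Without the 10 most abundant members the shares of total FPKM were 0.0738%, 0.0451%, 0.0116% and 0.00438% from S36 to S45, and the S45 share was 0.0513% with median-ratio scaling and 0.0714% of Cluster-199519 alone. Leaving out a library of the stage gave 0.636% to 0.983% at S36, 0.455% to 0.553% at S40, 0.140% to 0.228% at S43 and 0.0626% to 0.0647% at S45.

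Calls of members lower at S43 than at S40 (2) became 0 with no filter, 6 at a mean FPKM of at least 5, 6 with quantile normalization, 0 with median-ratio scaling, 6 with 12 separate libraries, 0 without both libraries of the close pair, 0 in a fit of these stages alone and 0 to 4 without a single library, namely 0 without S36 replicate 1 or 2, any S40 replicate, S43 replicate 2 or S45 replicate 1, 1 without S43 replicate 3 and 4 without S43 replicate 1. Calls lower at S45 than at S43 (0) became 3 with 12 separate libraries and 0 to 5 without a single library, the highest without S43 replicate 3. Calls lower at S45 than at S36 (16) became 6 without both libraries of the close pair, 0 in a fit of these stages alone and 2 to 20 without a single library, and stood at 12 to 21 under the other settings. Calls by the F test (12) became 7 with no filter, 20 with quantile normalization, 20 with 12 separate libraries, 3 without both libraries of the close pair and 4 to 17 without a single library, namely 4 to 6 without S36 replicate 1 or 2, any S40 replicate or S45 replicate 1. No setting called a member lower at S40 than at S36. Where S45 replicate 1 is left out, S45 is a lone sample assumed to vary like the other stages. Over all unigenes, 0.335% were called lower at S43 than at S40 with quantile normalization and 0.17% with median-ratio scaling, against 0.18% in the main fit. At S45 against S36 these shares were 0.2% and 0.178%, against 0.141%. For the other settings they were not computed, so changes of the counts are not read as a trait of the members. The cause of these changes was not tested.

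Replicate numbers share no stated source. The correlation of deviations from stage means between libraries of the same number was -0.23 to 0.12 over 18 pairs, above 0.1 in 1, and a library correlated best with its own number in 4 of 18. With the replicate block in the fit of 12 separate libraries, 1 member was called lower at S43 than at S40, 0 at S45 than at S43, 21 at S45 than at S36 and 18 by the F test, against 6, 3, 21 and 20 without the block. Depth is unknown, so differences among low values, such as the S43 and S45 values under 5 FPKM, carry no stated precision.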
